A study of Homo sapiens with 2 samples.

Results

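The S100 calcium-binding proteins are a family of small EF-hand proteins, and 10 of their genes are described here in CHME3. This immortalised human line carries the cell type label microglia. The members are S100A2, S100A3, S100A4, S100A6, S100A8, S100A10, S100A11, S100A13, S100A16 and S100B. They were taken by gene name from the deposited transcript records, which gave 15 of 56891 records and 10 of 26370 gene names, and the values of a gene's transcripts were summed. The study had 1 untreated library and 1 library whose treatment label reads muscarinic receptor antagonists, and both came from cells at passages 4 to 6. The dose of the drug was 5 µg/ml. The labels name neither the compound nor the length of exposure. Levels are FPKM, fragments scaled by transcript length and by sequencing depth, so genes can be compared within a library per unit of length. Since each condition has a single library, differences have no replicate check. The intervals given below are 95% exact intervals on recovered fragments, cover counting error only, and compare the libraries rather than the conditions.

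Each S100 protein holds a pair of EF-hand loops, short acidic stretches that bind calcium. Most members work as dimers: calcium opens a cleft on the protein, and the cleft then binds targets such as annexins, myosin or p53. Some members are also released from cells and act on receptors, among them the receptor for advanced glycation end products and TLR4. In the brain S100B is known as an astrocyte product, and S100A8 with its partner S100A9 as a product of neutrophils and monocytes.

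The loop that binds calcium most tightly in this family shows how the members differ. It is printed for the 5 abundant members and for S100A2 and S100A4, the closest pair among the members. The bases are the coding strand of GENCODE v29 transcripts on GRCh38, and the capitals mark the codons of 4 residues that hold the calcium ion in a canonical loop.
S100A6: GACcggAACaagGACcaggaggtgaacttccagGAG
S100A11: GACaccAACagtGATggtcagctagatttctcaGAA
S100A10: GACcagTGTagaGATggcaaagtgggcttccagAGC
S100A16: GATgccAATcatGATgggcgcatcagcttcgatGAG
S100A13: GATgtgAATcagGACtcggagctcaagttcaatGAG
S100A2: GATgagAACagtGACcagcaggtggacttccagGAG
S100A4: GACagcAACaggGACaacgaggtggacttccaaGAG

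In 9 of the 10 members the first 3 of these codons encode aspartate or asparagine and the last encodes glutamate. S100A10, whose protein is known to stay in its target-binding form without calcium, is the exception. A pattern of a canonical loop matched 7 of the 10 members, and in S100A3, S100A10 and S100A13 the stretch shown or counted is the one aligned with S100A6. On the minus strand of GRCh38 the loop of S100A6 lies at chr1:153534753-153534788, that of S100A10 at chr1:151983244-151983279 and that of S100A11 at chr1:152032743-152032778. The proteins encoded by the members are 90 to 105 residues long. Over the 45 pairs of members the identity of the proteins ran from 22.8% to 58.4% with a median of 29.7%, and the pair at the top was S100A2 and S100A4. Their coding bases were 69.0% identical, the highest value of any pair of members.

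The untreated and treated libraries had an estimated depth of 6814381 and 7300465 fragments, and 11637 and 11652 genes were listed at 1 FPKM or more. The ribosomal RNA gene RNA18S5 was at 363 FPKM untreated and 759 treated, and its part in the values below was not tested. The label microglia was checked against 15 microglia and macrophage markers, of which 12 stayed under 1 FPKM. In both libraries 8 of these had no signal, among them the defining genes AIF1, TMEM119, CX3CR1 and PTPRC. Of 11 fibroblast and mesenchyme markers, 8 were over 1 FPKM in both libraries. The list summed to 5733 and 6229 FPKM, mostly from FN1 at 2725 and 3021 and VIM at 1967 and 2025. COL1A2 stayed under 1 FPKM, and DCN and LUM were listed at 0 in both libraries.

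Most S100 message in these cells came from 5 genes. S100A6, S100A11, S100A10, S100A16 and S100A13 together made up 98.1% of the members' summed FPKM untreated and 98.5% treated. S100A2, S100A3 and S100A4 were much lower, and S100A8 and S100B were listed at 0 in both libraries. The 10 members summed to 2031 and 2134 FPKM, which is 0.415% and 0.436% of the FPKM of all genes.

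S100A6, or calcyclin, which binds the ubiquitin ligase component CACYBP and annexins, was the highest member (chromosome 1, 153534600 to 153536241, 3 exons, minus strand). It was at 857 FPKM in the untreated library (interval 826 to 889, 2876 fragments) and at 949 FPKM in the treated library (917 to 981, 3473 fragments). It ranked 94 among all genes of the untreated library and 89 among those of the treated library. S100A6 alone made up 42.2% and 44.5% of the members' sum. It stood 2.10 and 2.07 times above the next member in the 2 libraries.

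S100A11, which binds annexin A1 and takes part in plasma membrane repair (chromosome 1, 152032506 to 152037035), was at 408 FPKM untreated (384 to 433, 1109 fragments) and 459 treated (435 to 484, 1355 fragments). S100A10, the light chain of the annexin A2 complex (chromosome 1, 151982910 to 151994238), was at 347 FPKM untreated (332 to 362, 2044 fragments) and 329 treated (315 to 344, 2101 fragments). By FPKM both libraries place S100A11 above S100A10 with intervals that do not overlap. The margin was 1.18 times untreated and 1.40 times treated. The intervals do not cover how length is corrected, which matters here because the transcripts have 594 bases (S100A11) and 1055 (S100A10). The line used to estimate depth takes 188 bases untreated and 183 treated off each length. With fragments divided by whole length the untreated order would reverse and the treated order would stay, so the untreated order is not firm.

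S100A16, a widely expressed member (chromosome 1, 153606891 to 153613038), was at 196 FPKM untreated (185 to 208) and 193 treated (182 to 204). S100A13, which takes part in the release of FGF1 and interleukin 1 alpha without a signal peptide (chromosome 1, 153618800 to 153634092), was at 184 FPKM untreated (168 to 200) and 172 treated (158 to 188). The intervals of these neighbours overlap in each library, so their order is not resolved. Below S100A13 the levels stepped down 8.05 times untreated and 8.93 times treated to the next member.

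That member is S100A2, a p53-regulated gene of epithelial cells (chromosome 1, 153561109 to 153565830), at 22.8 FPKM untreated (18.9 to 27.3, 120 fragments) and 19.3 treated (15.9 to 23.3, 110 fragments). Of the other markers of keratinocytes and epithelium, KRT5, KRT14 and TP63 were listed at 0 in both libraries, while KRT18, a keratin of simple epithelium, was at 241 and 262 FPKM. S100A3, known from hair cuticle (chromosome 1, 153547333 to 153549258), was at 10.99 FPKM untreated (7.82 to 15.0, 39 fragments) and 6.89 treated (4.54 to 10.02, 27 fragments). S100A4, known as fibroblast-specific protein and as a binder of non-muscle myosin (chromosome 1, 153543619 to 153545806), was at 5.49 FPKM untreated (2.84 to 9.58, 12 fragments) and 4.98 treated (2.65 to 8.52, 13 fragments). The intervals of S100A3 and S100A4 overlap in each library. S100A6 was 156 and 190.4 times the level of S100A4, although the genes lie on the same strand of the same cluster. S100A4 belongs to a list of 11 fibroblast and mesenchyme markers whose levels differed widely. Some were high, such as VIM at 1967 and 2025 FPKM, FN1 at 2725 and 3021, and THY1 at 119 and 115. Others were low: ACTA2 was at 2.52 and 2.26 FPKM, COL1A2 at 0.196 and 0.157, and DCN and LUM were listed at 0 in both libraries.

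**Figure D1:**
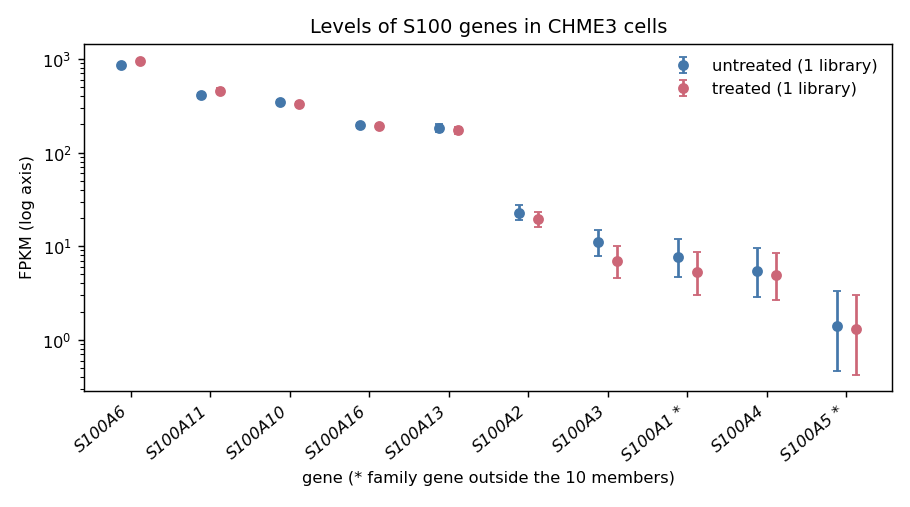
FPKM on a log axis for the S100 genes averaging 1 FPKM or more, in the untreated (blue) and treated (red) library, 1 point per library with its 95% counting interval. The order is the same in both libraries for the 8 members, from S100A6 at 857 and 949 FPKM to S100A4 at 5.49 and 4.98, and a step separates the upper 5 genes from the rest.

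S100A8, a subunit of calprotectin (chromosome 1, 153390032 to 153391188), and S100B (chromosome 21, 46598618 to 46605122) were listed at 0 in both libraries. A count of 0 allows up to 3 fragments, which is 1.32 and 1.21 FPKM for the short transcript of S100A8 and 0.465 and 0.432 FPKM for S100B in the untreated and treated libraries. S100A9, the partner of S100A8, and S100A12 were listed at 0 as well, with limits of 1.13 and 1.04 FPKM for S100A9. Of the 8 neutrophil and monocyte markers, which include these 3 genes, 7 were listed at 0 in both libraries, and the eighth, LYZ, was at 0.111 FPKM untreated and listed at 0 treated. Of 8 astrocyte markers, which include S100B, 5 were under 1 FPKM in both libraries, and the list summed to 34.9 and 38.2 FPKM, mostly from GJA1 at 27.7 and 30.3. AQP4 and SLC1A2 were listed at 0 in both, and GFAP was at 0.0506 FPKM untreated and listed at 0 treated. Of 8 Schwann cell and melanocyte markers 6 stayed below 1 FPKM, and the list summed to 11.3 and 11.7 FPKM.

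Of the 11 other S100 family genes, S100A1 and S100A5 were over 1 FPKM. S100A1, a heart and muscle member (chromosome 1, 153628397 to 153632037), was at 7.65 FPKM untreated (4.67 to 11.8, 20 fragments) and 5.31 treated (2.97 to 8.76, 15 fragments). It lies on the plus strand within the span of the longest S100A13 record, NM_001024210, which held an estimated 16 and 24 fragments. The other 4 records of S100A13 lie wholly outside S100A1. The labels do not say whether reads keep their strand. Its treated over untreated FPKM ratio was 0.695 (0.331 to 1.43). S100A5, of olfactory tissue, was at 1.41 and 1.30 FPKM, from 5 fragments in each library, a ratio of 0.917 (0.211 to 3.98). S100A14 was listed at 0 untreated and had 1 fragment treated, and 8 genes were listed at 0 in both libraries. None of the 7 fused-type genes, large epidermal proteins such as filaggrin that begin with an S100 domain, reached 1 FPKM, and 4 were listed at 0 in both libraries.

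On chromosome 1 the expressed members sit at the edges of a long stretch of genes listed at low values or 0. The family spans 1651 kb, from S100A10 to S100A13. Between S100A11 and S100A6, 1498 kb apart, the files list 55 genes, and 0 of them averaged 1 FPKM or more over the libraries. For 38 of the 55 both libraries gave 0. For the shortest genes a listed 0 is a weak limit: for LCE3A it allows up to 5.40 FPKM untreated and 4.73 treated. The highest value of either library among them was 0.784 FPKM, untreated, of FLG-AS1. This stretch holds S100A8, S100A9, S100A12, the S100A7 genes and the epidermal differentiation genes. Next to it, a run of 9 S100 genes within 99.5 kb goes from S100A6 to S100A1, and 8 of these averaged 1 FPKM or more. Levels differed widely within this run: S100A5 lies next to S100A6, and S100A6 was 607 and 732 times its level. These multiples are rough, since S100A5 rested on 5 fragments in each library. Its intervals were 0.459 to 3.30 FPKM untreated and 0.421 to 3.02 treated.

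**Figure D2:**
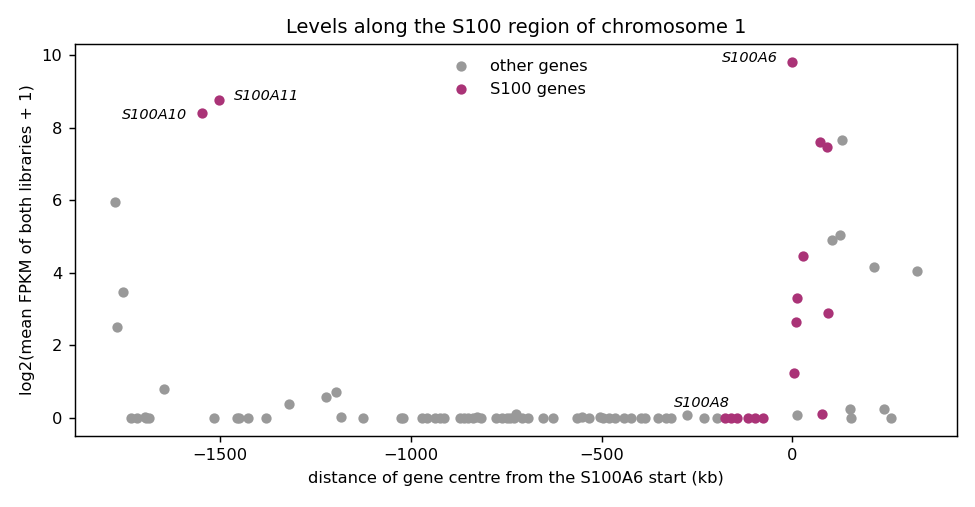
Each point is a gene within 250 kb of the S100 family on chromosome 1, at the distance of its centre from the S100A6 start in kb, against log2 of the mean FPKM of both libraries plus 1. S100 genes are coloured and other genes grey; the genes between S100A11 and S100A6 lie at or near 0, while S100A10, S100A11 and the run from S100A6 on stand above them.

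Of 69 genes in this region outside the family, 8 averaged 1 FPKM or more. These flank the cluster on either side. CHTOP, which overlaps the S100A13 span by 111 bases on the opposite strand, was at 27.4 and 30.6 FPKM. SNAPIN, of vesicle fusion, was at 30.8 and 33.2 FPKM, and INTS3, of the Integrator complex, at 15.996 and 17.5. On the other side MRPL9, a mitochondrial ribosomal protein, was at 63.1 and 58.6 FPKM, TDRKH at 9.69 and 10.5, and OAZ3 at 4.88 and 4.45. The interval of the treated over untreated ratio included 1 for all 8, where 6.38% of all genes lay above 1 and 6.04% below.

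S100A13 and S100A4 are the members with more than 1 transcript record. The 5 records of S100A13 share their 3′ end and differ in where they start. NM_001024212 led in both libraries, at 138 and 134 FPKM, 75.03% and 78.0% of the gene. By fragments its share was 73.0% (68.9% to 76.8%) and 75.6% (71.6% to 79.2%). NM_001024211 followed at 29.7 and 30.6 FPKM. NM_001024213 was at 8.79 and 2.61 FPKM, and the authors' bounds overlap, from 3.87 to 13.7 untreated and from 0.0171 to 5.21 treated. NM_005979 was at 3.87 FPKM untreated and at 8.0e-05 treated, with the authors' bounds apart, from 0.980 to 6.76 and from 0 to 0.541. This record rested on an estimated 13 and 0 fragments, and reads of exons that the records share were divided among them by the authors' software. NM_001024210 was at 3.42 and 4.59 FPKM.

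**Figure D3:**
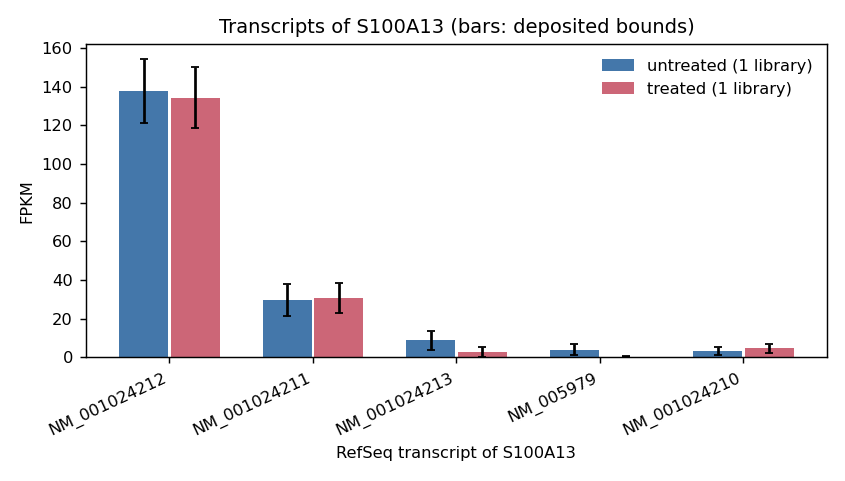
FPKM of the 5 RefSeq transcripts of S100A13 in the untreated (blue) and treated (red) library, with the lower and upper bounds the authors deposited. NM_001024212 stands at 138 and 134 FPKM and the smallest records lie under 10 FPKM.

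For S100A4 the records divided differently. NM_002961 held all but a trace of the gene's 5.49 FPKM in the untreated library, whereas in the treated library it was at 2.39 and NM_019554 at 2.60 FPKM. Bounds of each record overlap between libraries, and the gene total rested on 12 and 13 fragments. S100A3 and S100A4 are overlapped on the opposite strand by the record LOC101928034, which was at 0.0102 and 0.113 FPKM.

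The comparison of treated with untreated cells asked whether any member differed between the libraries. Of the 8 members over a mean of 1 FPKM, 0 differed by 2-fold on the log2 scale of (FPKM + 1), where 0.66% of 11668 genes did in either direction. This scale understates the ratio of low genes. At a smaller size, at least 25% higher or 20% lower on this scale, 1 of the 8 members passed, S100A3, which was lower, beside 9.77% of all genes. This smaller size was reached by S100A1 as well, which is no member. As the RNA is from bulk cultures, fewer cells that express a gene and less of its RNA per cell cannot be told apart.

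The 2 highest members, S100A6 and S100A11, were higher in the treated library. The other 6 members over 1 FPKM had lower values, with intervals that include 1. S100A6 had an FPKM ratio of 1.11 (1.05 to 1.16) and a log2 ratio of 0.15. S100A11 had an FPKM ratio of 1.13 (1.04 to 1.22) and a log2 ratio of 0.17. Their intervals lay above 1, in 2 of 8 members beside 6.38% of all genes. For 0 of 8 members the interval lay below 1, beside 6.04% of all genes. Among the 729 genes that averaged 100 FPKM or more, a level chosen after the values were seen, the intervals lay above 1 in 12.9% and below 1 in 17.1%, and 5 members belong to this class. The authors' own bounds of S100A6 and of S100A11 did not overlap between the libraries. The fragments behind the intervals were recovered from these bounds, so the bounds are no separate support. They ran from 825 to 889 and from 916 to 981 FPKM for S100A6, and from 383 to 432 and from 434 to 484 for S100A11. These were 2 of the 6 single-transcript members over 1 FPKM, beside 3.27% of 4991 such genes, a share not matched to their level.

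The ratios of the other abundant members were close to 1. S100A10 had an FPKM ratio of 0.9498 (0.893 to 1.01), S100A16 of 0.983 (0.907 to 1.07) and S100A13 of 0.938 (0.829 to 1.06). All of these intervals include 1, and all lie between 20% lower and 25% higher. Among the low members, S100A2 had a ratio of 0.846 (0.647 to 1.105), S100A3 of 0.627 (0.369 to 1.05) and S100A4 of 0.908 (0.382 to 2.18). For S100A3 and S100A4 the interval reaches past 2-fold, so it does not exclude a difference of that size. Of the 8 members 2 were higher and 6 lower, and their median log2 ratio was -0.08, where the median of all genes over 1 FPKM was 0.00 with quartiles of -0.10 and 0.11.

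**Figure D4:**
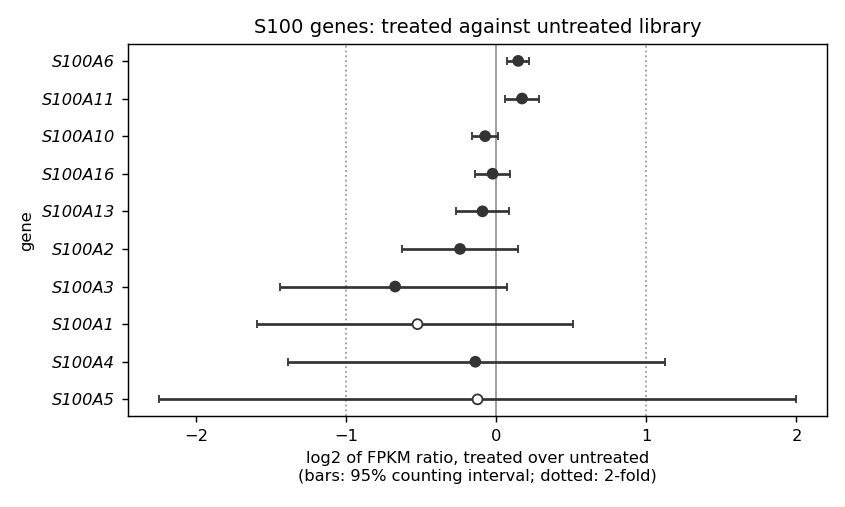
Log2 of the FPKM ratio of the treated over the untreated library for each S100 gene over 1 FPKM, with its 95% counting interval. Filled points are members and open points other family genes; S100A6 and S100A11 lie to the right of 0, the other intervals include 0, and the bars widen toward the low genes at the bottom.

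**Figure D5:**
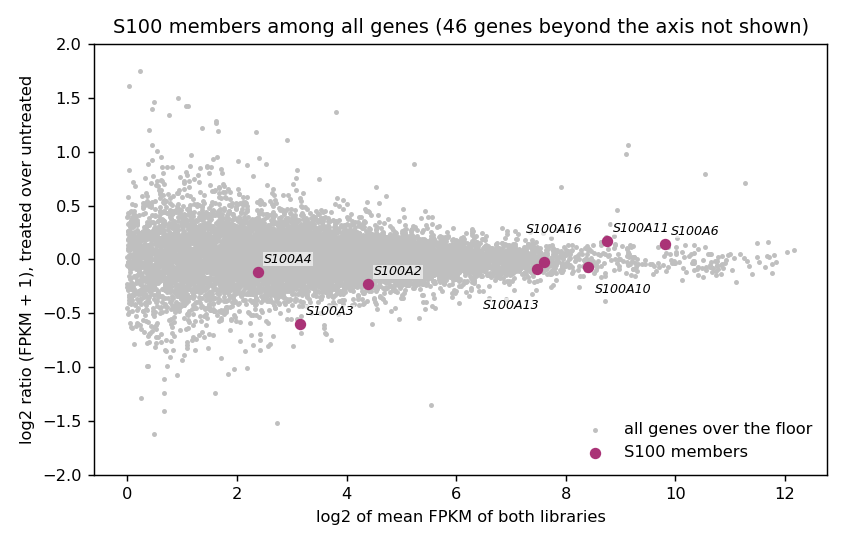
Log2 ratio of (FPKM + 1), treated over untreated, against log2 of the mean FPKM for the 11668 genes over 1 FPKM (grey) and the 8 members (coloured), with 46 genes beyond the axis not shown. The members lie within 2-fold, and S100A3, at -0.60, lies lowest.

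Several partners of the family inside the cell were listed at high levels. ANXA2, or annexin A2, which forms a tetramer with S100A10, was at 1197 and 1224 FPKM, 3.45 and 3.72 times the level of S100A10 per unit of length. CACYBP, the partner of S100A6, was at 51.9 and 50.2 FPKM, so S100A6 was 16.5 and 18.9 times higher. MYH9, the non-muscle myosin heavy chain that S100A4 binds, was at 552 and 608 FPKM with a ratio of 1.101 (1.08 to 1.12). AHNAK, a giant scaffold that binds S100A10 and annexin A2, was at 99.1 and 102 FPKM with a ratio of 1.03 (1.01 to 1.06). Of 30 partners and targets, 27 averaged 1 FPKM or more, of which 17 were higher and 10 lower. The median log2 ratio was 0.04, 1 passed the smaller size and 0 passed 2-fold, and the interval lay above 1 in 7 and below 1 in 2. Over all genes 9.77% passed the smaller size, and the interval lay above 1 in 6.38% and below 1 in 6.04%, or in 12.9% and 17.1% of genes averaging 100 FPKM or more.

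That gene was FGF1, a growth factor that leaves cells with S100A13, at 2.16 and 3.14 FPKM with a ratio of 1.46 (1.01 to 2.11). SUGT1, a chaperone adaptor that binds S100A6, was at 30.1 and 25.3 FPKM with a ratio of 0.840 (0.713 to 0.988). STK38, a kinase that S100B activates, was at 22.1 and 25.1 FPKM, PPP5C, a phosphatase, at 35.4 and 40.1, and ANXA1, the partner of S100A11, at 65.7 and 73.2. IL1A, the other cargo named with S100A13, was at 0.0535 FPKM untreated and listed at 0 treated.

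Among 10 receptors of secreted S100 proteins, 8 averaged 1 FPKM or more. BSG, or basigin, was the highest at 563 and 553 FPKM. AGER, the receptor for advanced glycation end products, was at 4.52 and 4.63 FPKM with a ratio of 1.03 (0.665 to 1.58). TLR4 was at 0.0552 and 0.206 FPKM from 2 and 8 fragments. CD68 was at 15.7 and 12.6 FPKM, MCAM at 66.3 and 71.2, FGFR1 at 22.8 and 21.2, and ALCAM at 57.1 and 54.3. Of the 8, 4 were higher and 4 lower, and the median log2 ratio was -0.01. The smaller size was passed by 0 of the 8, beside 9.77% of all genes. The interval lay above 1 in 1, MCAM, and below 1 in 0, beside 6.38% and 6.04% of all genes.

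S100A10 also gathers plasminogen and its activators at the cell surface, and 9 of 11 genes of that system averaged 1 FPKM or more. PLG, plasminogen itself, and CPB2 were listed at 0 in both libraries. PLAT, the tissue activator, was at 13.7 and 14.4 FPKM, and PLAU, urokinase, at 14.02 and 15.95. ENO1, an enolase that also binds plasminogen, was at 1437 and 1557 FPKM with a ratio of 1.08 (1.06 to 1.105), and PLGRKT, a plasminogen receptor, at 12.9 and 9.89 with a ratio of 0.767 (0.531 to 1.11). The list, which holds ANXA2 and S100A10 too, had 6 genes higher and 3 lower, with a median log2 ratio of 0.05. PLGRKT was the 1 gene of 9 past the smaller size, beside 9.77% of all genes. The interval lay above 1 in 2 of the 9 and below 1 in 0. Over all genes these shares were 6.38% and 6.04%, or 12.9% and 17.1% of genes averaging 100 FPKM or more.

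Other EF-hand proteins differed as little. Of 32 such genes 27 averaged 1 FPKM or more, 15 higher and 12 lower, with a median log2 ratio of 0.01. The smaller size was passed by 0 of the 27, beside 9.77% of all genes. Intervals lay above 1 in 3 and below 1 in 2. Over all genes these shares were 6.38% and 6.04%, or 12.9% and 17.1% of genes averaging 100 FPKM or more. All 3 genes above 1 averaged over 100 FPKM. HPCAL1, a neuronal calcium sensor, was at 65.6 and 58.4 FPKM, CALU, of the secretory pathway, at 102 and 93.9, NUCB2, or nucleobindin, at 31.0 and 34.4, and EPS15, of endocytosis, at 7.04 and 7.79. ACTN1 and ACTN4, the actinins that bundle actin, were at 376 and 420.1 FPKM and at 156 and 169. S100A6 was above every gene of this list in both libraries.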

How the data were processed

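RNA of 1 untreated and 1 treated culture was sequenced. TruSeq libraries were made from total RNA, per the labels. The build was hg38 and the tools named are TopHat and Cuffdiff, per the submitters' processing notes, and their versions are not given in the sources used here. Each deposited record names Cufflinks and a RefSeq transcript, and holds an FPKM with lower and upper bounds that the authors computed. The deposited score of a transcript relative to its locus was not used. The labels do not say whether strand was kept.

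FPKM was summed over the transcripts of a gene. Differences are log2 of (treated FPKM + 1) over (untreated FPKM + 1), for genes averaging 1 FPKM or more. Sizes of 2-fold, and of 25% higher or 20% lower, are rules with no test. Fragments were recovered as the square of 2 times FPKM over the distance to the upper bound. For genes with several transcripts they came from FPKM, length and depth. The depth came from a line through transcripts of at least 1000 bases with whole fragments of at least 10, within 0.01. Of single-transcript genes 22.0% untreated and 22.2% treated gave whole fragments, so these are estimates. For the 6 single-transcript members over 1 FPKM, FPKM, length and depth gave 0.997 to 1.05 times the recovered number. This does not hold for every gene. Untreated, VIM had 2155 recovered fragments at 1967 FPKM, while S100A10 had 2044 at 347 FPKM. Too few recovered fragments widen an interval, so the shares of all genes with intervals above or below 1 may be too low. Level intervals are Poisson and ratio intervals conditional binomial, both exact. The interval code was run on simulated Poisson counts whose bounds were built by the same formula. This checks the code and cannot show that the recovered fragments hold for these data.

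Coding sequences of GENCODE v29 took the place of RefSeq proteins, and were translated and aligned with Biopython 1.88. Named beyond the members are other family genes over 1 FPKM, up to 6 genes of each list with the largest log2 ratio over 1 FPKM, and AGER, TLR4, ANXA2, AHNAK, CACYBP and MYH9. Beside the cluster the same rule of 6 genes was used. A gene that the rule takes is not reported here. Marker genes, IL1A, PLG, CPB2 and FLG-AS1 were named after their values were seen. The members and lists were chosen with earlier results of these data known. Alternatives tried were other pseudocounts, floors and scalings, the most abundant transcript, fragments in place of FPKM, and TPM.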

Additional observations from a re-analysis of the deposited data

How the results depend on the processing

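None of the 8 members over 1 FPKM passed 2-fold under any of 8 alternative settings (2 pseudocounts, the most abundant transcript, 2 scalings, fragments scaled by depth and 2 floors). Each setting was changed alone. The median log2 ratio of the members ran from -0.0846 to -0.0450 over these settings. All 48 alternative log2 ratios of single members lay within the counting interval of the main value and kept its direction. S100A6 ran from 0.144 to 0.162, S100A11 from 0.169 to 0.179 and S100A3 from -0.673 to -0.551. S100A4 ran from -0.938 with its most abundant transcript alone to -0.00804, which its 12 and 13 fragments limit. That transcript went from 5.49 FPKM untreated to 2.39 treated, which is past 2-fold where 1 is not added to each value. Either scaling moved all genes by less than 0.01 on the log2 scale. TPM gave 1752 and 1939 for S100A6, since FPKM summed to 489289 and 489194 over all genes. No paired analysis was possible because each condition has 1 library, and leaving out a library leaves nothing to compare.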
